A study of Mus musculus with 4 samples.

Results

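The T and B lymphocyte identity genes are 29 genes by which T cells and B cells are usually recognised, and they were followed here in mouse liver tumors in which p53 had been switched back on. They are a list of gene names, chosen with no threshold on measured values. Of the 29 genes, 28 were measured, with 54 probe sets (a probe set is a group of short array probes for one transcript) that the annotation pairs with exactly 1 gene, out of 18193 genes measured in this way. Lck, a kinase that acts at the T cell receptor, was not analysed here because it had no such probe set. T cell genes make up 17 of the measured members and B cell genes 11.

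Liver progenitor cells (LPCs), placed orthotopically into the livers of recipient mice, had given rise to these tumors. In both groups they were driven by HrasV12, an oncogenic form of a RAS signalling protein, and carried tet-off shp53, a short hairpin RNA against p53 that doxycycline switches off. In the p53 on group (2 samples) the mice had received doxycycline for 8 days, so that p53 was restored, and in the p53 off group (2 samples) for 0 days. The sources used here state neither the strain, age and immune status of the recipients nor the number of mice. They hold no group with doxycycline and without the hairpin, so that effects of p53, of doxycycline and of time cannot be told apart. Nothing in the labels says that the 2 samples of a group came from separate mice, so the p-values cover the spread between samples, and that spread may be technical.

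A T cell recognises its target through the T cell receptor, whose signal is carried by the CD3 proteins and the zeta chain and helped by the coreceptors CD4 or CD8. A B cell uses a membrane antibody, which signals through CD79A and CD79B, and a B cell that becomes a plasma cell secretes that antibody. Both cell types are found in healthy liver and can enter liver tumors, and several of their genes are also used by other cells: natural killer (NK) cells share parts of T cell signalling, and Thy1 is also made by fibroblasts. In RNA from whole tumor, fewer cells of a type and less RNA per cell cannot be told apart.

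The values are log2 values made with RMA, an array normalization that gives no call of presence or absence. A silent-gene level was therefore set on each array as the 95th percentile of 80 probe sets for olfactory and vomeronasal receptors, genes of the nose that are taken as not expressed in a liver tumor. This level was 7.89 and 7.69 on the p53 on arrays and 7.69 and 7.48 on the p53 off arrays, and the median of those probe sets was 6.14 and 6.11 in p53 on against 6.02 and 5.96 in p53 off. A gene is called above the level where both arrays of a group exceed it. Probes differ in how strongly they bind, so that a gene below the level may still be expressed, and a gene above it may be there because of its probes. Across genes the p53 on arrays correlated with r = 0.9931, the p53 off arrays with r = 0.9969, and arrays of different groups with r between 0.9652 and 0.9716. The difference between 3' and 5' probe sets of beta-actin, a sign of RNA quality, was 0.478 and 0.492 in p53 on and 0.395 and 0.262 in p53 off. It moved with the groups, and its part in the results was not tested.

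Most lymphocyte identity genes lay at or below the silent-gene level in both groups. Only 7 of the 28 genes were above it in p53 on (25%) and 8 in p53 off (28.6%), against 55.7% and 58.4% of all genes. Cd3e, Cd4, Icos, Zap70, Thy1, Ighm and Cd22 were above it in both groups, and Mzb1 in p53 off alone. The level was higher on the p53 on arrays, and Mzb1 averaged 7.81 in p53 on and 7.70 in p53 off. The other 20 were above it in neither group, among them Cd3d, Cd3g, both CD8 chains, Cd79a, Cd79b, Ms4a1, Pax5, Foxp3 and Jchain. Of all 54 probe sets, 9 were above it in p53 on (16.7%) and 10 in p53 off (18.5%), against 40.9% and 43.7% of all probe sets.

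Against this background, Thy1 and Cd22 were higher in p53 on and no lymphocyte identity gene was lower. The test was limma on each gene with Benjamini-Hochberg adjustment over all 18193 genes, and a gene was called at an adjusted p under 0.05. Over all genes 14% were called higher, 14.7% lower and 28.7% in either direction, so the 2 and 0 of 28 lie below the background. At an unadjusted p under 0.05, 6 members were higher and 0 lower, against 20.7% and 19.8% of all genes, so that the 6 are near the background share. The values of the groups did not overlap for 10 members that were higher in p53 on (36.3% of all genes) and for 1 that was lower, Cd6 (30.4% of all genes); the first of these shares is near the background. The median change of the members, p53 on minus p53 off, was 0.0805 on the log2 scale, against 0.0228 over all genes and 0.0654 over the 80 silent probe sets. The lowest change was -0.17 (Cd2) and the highest 0.78 (Thy1).

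**Figure D1:**
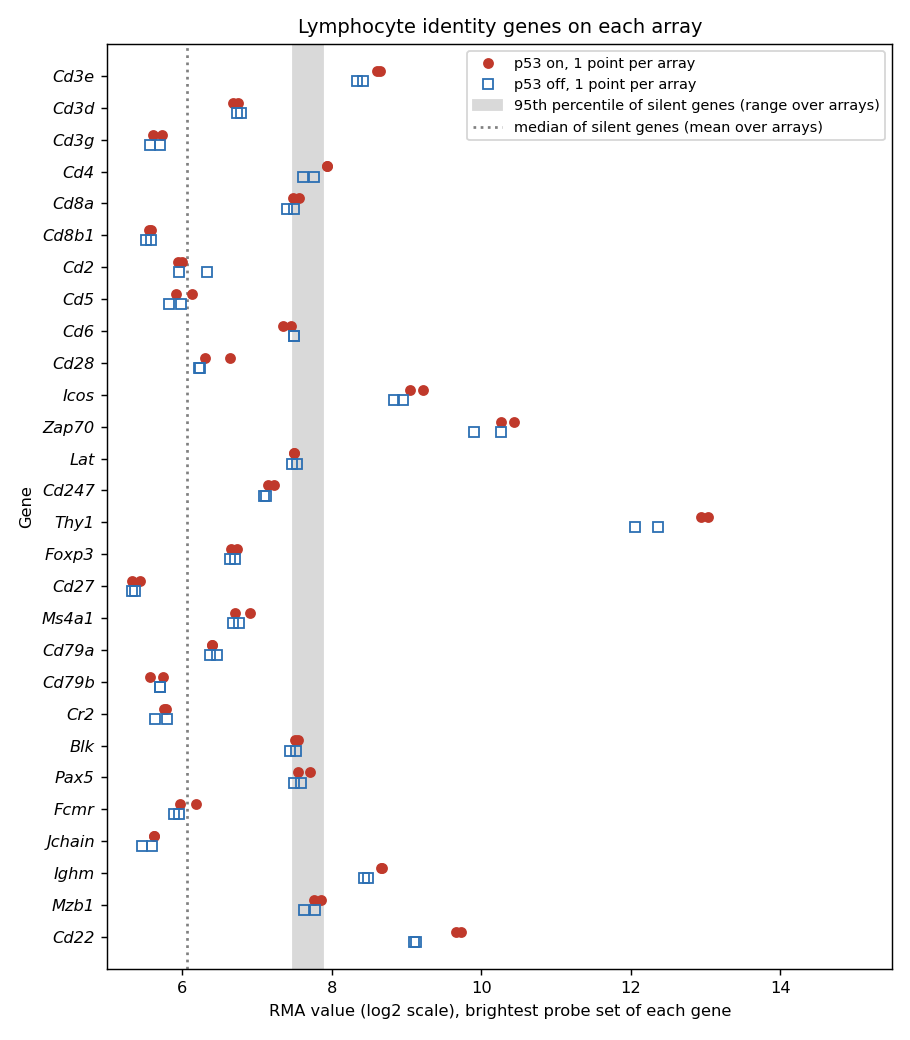
Log2 RMA value (horizontal axis) of the brightest probe set of each lymphocyte identity gene on each array, with filled circles for p53 on and open squares for p53 off. The grey band is the range over arrays of the 95th percentile of silent genes, 7.48 to 7.89, and the dotted line is their median: most genes lie in or left of the band, and the circles lie clearly right of the squares for Thy1 and Cd22.

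The CD3 chains and the zeta chain carry the T cell receptor to the cell surface and signal for it, and of these 4 genes none passed the test. Cd3e, the epsilon chain, had values of 8.65 and 8.60 in p53 on, against 8.34 and 8.42 in p53 off. Both p53 on arrays were above both p53 off arrays, and all 4 were above the silent-gene level. The change was 0.25 ± 0.076 (SE; 95% confidence interval 0.056 to 0.437), with an adjusted p of 0.0637. Cd3d, the delta chain, had 6.74 and 6.69 in p53 on and 6.79 and 6.73 in p53 off, and Cd3g, the gamma chain, had 5.61 and 5.73 in p53 on and 5.71 and 5.57 in p53 off. For both genes the groups overlapped and every array was below the silent-gene level. Their changes were -0.05 ± 0.074 and 0.03 ± 0.090, with 95% confidence intervals of -0.233 to 0.139 and -0.195 to 0.258, so that changes beyond those bounds lie outside the intervals. Cd247, the zeta chain, which NK cells use too, changed by 0.09 (adjusted p 0.443).

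Coreceptors mark the helper and the killer branch of T cells, and none of the 3 coreceptor genes passed the test. Cd4, which some dendritic cells also carry, had 7.93 and 7.93 in p53 on, against 7.76 and 7.62 in p53 off. The groups did not overlap, and the change was 0.24 ± 0.082 with an adjusted p of 0.0791. The second Cd4 probe set did not show this difference: it changed by -0.04 (adjusted p 0.827 over all probe sets) and was not above the silent-gene level. Cd8a, the CD8 alpha chain, had 7.56 and 7.48 in p53 on and 7.50 and 7.41 in p53 off. The groups overlapped, its change was 0.07 ± 0.080 (95% confidence interval -0.131 to 0.269), and none of its 5 probe sets was above the level. Cd8b1, the CD8 beta chain, which marks killer T cells more narrowly, had 5.59 and 5.56 in p53 on and 5.58 and 5.52 in p53 off. Its 4 values lay below the median of the silent genes, with a change of 0.02 and an adjusted p of 0.861.

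Just inside the cell, the kinase ZAP-70 and the adaptor LAT pass the T cell receptor signal on. Zap70 had 10.26 and 10.44 in p53 on, against 10.27 and 9.90 in p53 off. The groups overlapped, and the difference of 0.27 ± 0.142 did not pass the test (adjusted p 0.226). The high value comes from 1 of its 3 probe sets: the other 2 averaged 6.31 and 7.59 in p53 on, against 6.32 and 7.43 in p53 off, and were not above the silent-gene level. Lat had 7.50 and 7.49 in p53 on and 7.53 and 7.47 in p53 off, and did not pass either (adjusted p 0.983).

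Among the 7 costimulatory and surface genes of T cells, Thy1 passed the test. Thy1 encodes a small surface glycoprotein of mouse T cells that is also made by fibroblasts, some endothelial cells and neurons. Its values were 12.94 and 13.03 in p53 on, against 12.36 and 12.05 in p53 off. Both p53 on arrays were above both p53 off arrays, and all 4 were far above the silent-gene level. The change was 0.78 ± 0.12 (1.72-fold; 95% confidence interval 0.479 to 1.082; adjusted p 0.00754). In the same arrays 9 of 10 fibroblast markers were higher in p53 on and 0 lower, and without Thy1, which is in that list, 8 of 9 (median change 0.73). Their summed level without Thy1 was 16.65 and 16.63 in p53 on, against 15.94 and 15.75 in p53 off, and all of the markers were above the silent-gene level. Lum, a matrix proteoglycan, rose by 3.01 ± 0.15 and Pdgfrb, a growth factor receptor of fibroblasts and pericytes, by 0.93 ± 0.091. The part of fibroblasts in the Thy1 result was not tested.

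The other 6 surface genes did not pass. Icos, a costimulatory receptor of activated T cells, had 9.05 and 9.23 in p53 on, against 8.95 and 8.83 in p53 off. The groups did not overlap, and the change of 0.25 ± 0.095 had an adjusted p of 0.11. Its remaining 2 probe sets were not above the silent-gene level. Cd28, the main costimulatory receptor of naive T cells, had 6.31 and 6.64 in p53 on and 6.24 and 6.23 in p53 off, with an adjusted p of 0.213. Without the first p53 on array Cd28 did pass (change 0.41, adjusted p 0.0246), on a value that is not above the silent-gene level. Cd2, Cd5, Cd6 and Cd27, adhesion and signalling receptors, changed by between -0.17 and 0.13, with adjusted p-values from 0.42 to 0.813. Foxp3, the transcription factor of regulatory T cells, had 6.73 and 6.65 in p53 on and 6.64 and 6.70 in p53 off. The groups overlapped below the silent-gene level, with a change of 0.02 ± 0.077 (95% confidence interval -0.172 to 0.212).

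Of the B cell genes, Cd22 passed the test. It encodes an inhibitory receptor of B cells that binds sialic acid on other proteins. The values were 9.67 and 9.73 in p53 on, against 9.12 and 9.10 in p53 off. Both p53 on arrays were above both p53 off arrays and all 4 were above the silent-gene level. The change was 0.59 ± 0.074 (1.51-fold; 95% confidence interval 0.406 to 0.775; adjusted p 0.00391). In the same arrays 9 of 10 pan-leukocyte genes were higher in p53 on, and their part in the Cd22 result was not tested. The second Cd22 probe set averaged 5.94 in p53 on and 5.67 in p53 off, below the silent-gene level, and its change of 0.27 ± 0.094 did not pass (adjusted p 0.101 over all probe sets).

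The other B cell surface genes did not move with Cd22 to a degree that passed the test. Ms4a1, which encodes CD20, the marker of mature B cells, had 6.90 and 6.70 in p53 on and 6.76 and 6.68 in p53 off. The groups overlapped below the silent-gene level (change 0.08 ± 0.097; 95% confidence interval -0.161 to 0.326). Cr2, a complement receptor, changed by 0.05 and Fcmr, the receptor for IgM, by 0.15, with adjusted p-values of 0.722 and 0.316. Blk, a B cell kinase, had an adjusted p of 0.674, and Pax5, the transcription factor that holds cells in the B lineage, had 0.574.

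CD79A and CD79B are the signalling pair of the B cell receptor. Cd79a had 6.40 and 6.40 in p53 on and 6.47 and 6.37 in p53 off, and Cd79b had 5.75 and 5.58 in p53 on and 5.70 and 5.70 in p53 off. For both genes the groups overlapped and all arrays were below the silent-gene level. The changes were -0.02 ± 0.077 and -0.04 ± 0.088, with 95% confidence intervals of -0.214 to 0.171 and -0.259 to 0.181. Mzb1, a chaperone for antibody assembly, had 7.86 and 7.77 in p53 on and 7.77 and 7.62 in p53 off, around the silent-gene level (adjusted p 0.394). Jchain, which joins secreted antibody units, had 5.62 and 5.63 in p53 on and 5.60 and 5.46 in p53 off, below it (adjusted p 0.45).

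Sequence upstream of the start site is shown for Cd22, the B cell gene that passed the test, and for Cd79a and Cd3e, receptor genes of the B and the T lineage that did not. Each is 250 bases before the start, written on the gene's strand, from RefSeq (GRCm38.p6). RefSeq's table held an entry for 17 of the 29 genes. The Cd22 window lies at chr7:30879029-30879278 (minus strand), Cd79a at chr7:24897247-24897496 (plus strand) and Cd3e at chr9:45009612-45009861 (minus strand). Capitals mark exact matches to GGAA, a core bound by ETS factors, and to CCCNNGGG, a core bound by EBF factors, on either strand.
Cd22: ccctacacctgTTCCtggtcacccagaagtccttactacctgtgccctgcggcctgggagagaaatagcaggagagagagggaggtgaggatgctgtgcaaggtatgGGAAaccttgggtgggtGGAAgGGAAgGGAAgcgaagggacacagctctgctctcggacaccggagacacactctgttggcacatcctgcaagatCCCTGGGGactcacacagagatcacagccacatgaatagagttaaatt
Cd79a: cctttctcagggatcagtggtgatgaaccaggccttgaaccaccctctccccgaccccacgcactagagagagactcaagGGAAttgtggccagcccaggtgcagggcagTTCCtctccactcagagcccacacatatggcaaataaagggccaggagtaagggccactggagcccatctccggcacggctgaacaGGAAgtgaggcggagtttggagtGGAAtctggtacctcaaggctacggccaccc
Cd3e: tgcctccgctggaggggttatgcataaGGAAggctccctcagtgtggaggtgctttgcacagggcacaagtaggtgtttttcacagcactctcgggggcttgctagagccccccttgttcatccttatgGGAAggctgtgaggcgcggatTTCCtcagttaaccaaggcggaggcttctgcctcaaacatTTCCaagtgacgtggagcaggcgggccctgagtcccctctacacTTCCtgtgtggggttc
The Cd22 window held 5 matches to GGAA and 1 to CCCNNGGG, the Cd79a window 4 and 0, and the Cd3e window 5 and 0. The octamer ATGCAAAT, a motif of antibody gene promoters, had 0 matches in each of the 3 windows. Of 32851 windows of this length, 93.4% held GGAA, 11.8% held CCCNNGGG and 1.6% held the octamer, so ETS cores are common in any promoter. The matches are a description of the letters and were not tested for binding. A site whose letters differ from these patterns is not counted, and a marked stretch need not be bound by the factor named.

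**Figure D2:**
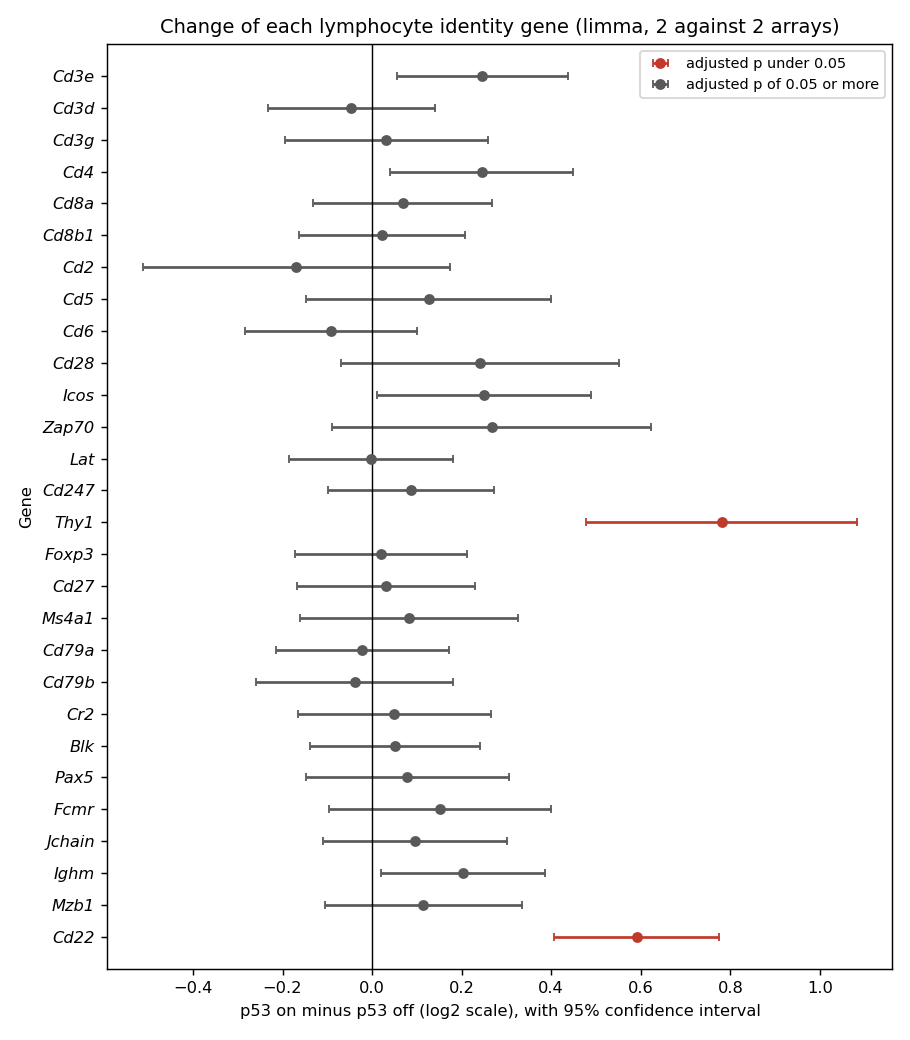
Change of each lymphocyte identity gene, p53 on minus p53 off on the log2 scale (horizontal axis), as points with the 95% confidence interval from limma on 2 against 2 arrays. Thy1 at 0.78 and Cd22 at 0.59 passed an adjusted p under 0.05, and the other genes lie between -0.17 and 0.27.

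Ighm encodes the constant region of the IgM heavy chain, the antibody class that B cells make first, and its 11 probe sets did not move together. The brightest had 8.66 and 8.67 in p53 on, against 8.49 and 8.43 in p53 off. The groups did not overlap, but the change of 0.20 ± 0.073 did not pass the test (adjusted p 0.095). Of the other 10, probe set 1427351_s_at had 8.10 and 8.02 in p53 on, against 7.16 and 7.26 in p53 off, and 1427329_a_at had 7.37 and 7.20 in p53 on, against 6.50 and 6.76 in p53 off. In both, the 2 p53 on arrays were above the 2 p53 off arrays, but only the first was above the silent-gene level, and only in p53 on. When all 45037 probe sets were tested, these 2 passed, with changes of 0.84 ± 0.079 (adjusted p 0.00208) and 0.65 ± 0.116 (adjusted p 0.0139). In that test 22.8% of all probe sets passed in either direction, 11.3% higher and 11.5% lower. The other 9 Ighm probe sets, the brightest included, had changes between -0.46 and 0.20 and did not pass. The groups did not overlap in 3 of the 11 that were higher in p53 on and in 4 that were lower, against 36.1% and 27.7% of all probe sets. A suffix of s or x in a probe set's name marks probes shared by similar transcripts, and antibody genes are a large family of similar sequences, so it is uncertain which transcript such a probe set reads. The brightest Ighm probe set, 1427870_x_at, carries such a suffix too. When probe sets with these suffixes were left out, Ighm was read from 1425247_a_at, with a change of 0.03.

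**Figure D3:**
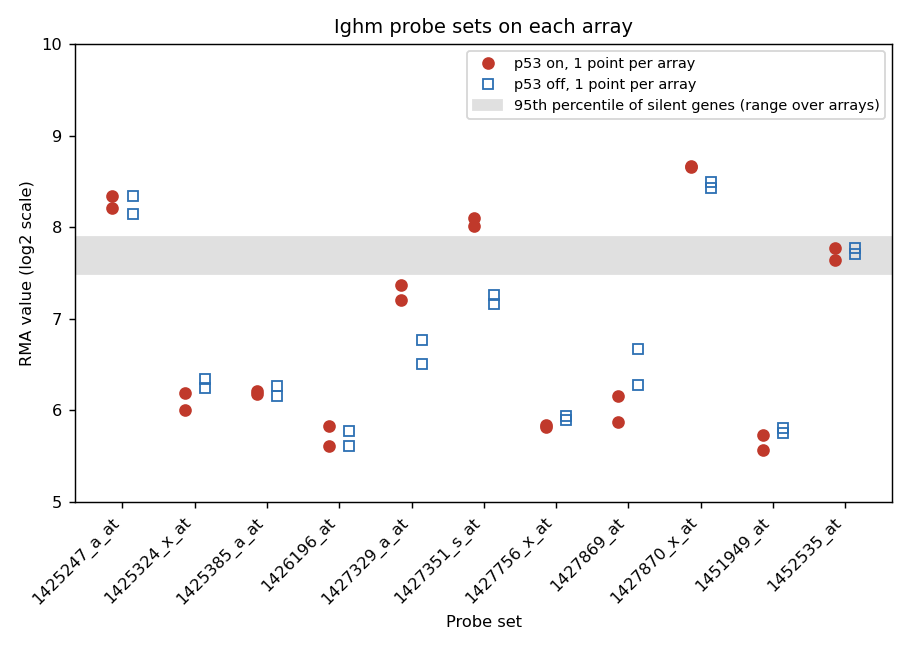
Log2 RMA value (vertical axis) of each of the 11 Ighm probe sets (horizontal axis) on each array, with filled circles for p53 on and open squares for p53 off. The grey band is the range over arrays of the 95th percentile of silent genes, and 1427351_s_at and 1427329_a_at are the 2 probe sets in which the p53 on mean was above the p53 off mean by over 0.5.

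Which probe set stands for a gene affected how many members lay above the silent-gene level. Of the 18 genes with 1 probe set, 2 were above it in p53 on and 3 in p53 off. Of the 10 genes with several, 5 were above it in each group through their brightest probe set. Outside Ighm there were 43 probe sets, of which 6 were above it in p53 on and 7 in p53 off, each the brightest of its gene. When the probe sets of each gene were averaged in place of taking the brightest, the counts were 3 in p53 on and 4 in p53 off.

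**Figure D4:**
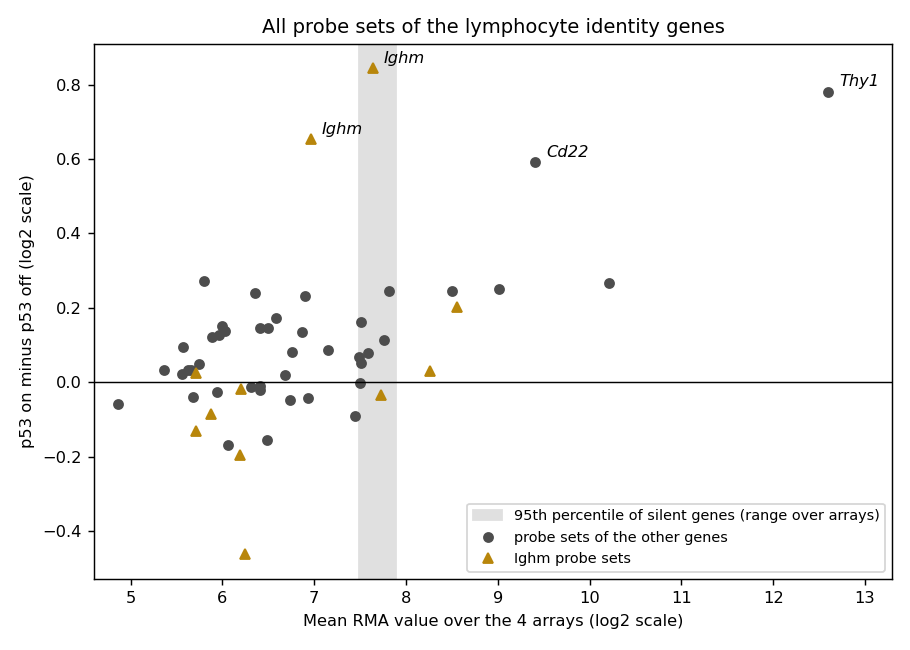
Change, p53 on minus p53 off on the log2 scale (vertical axis), against the mean log2 RMA value over the 4 arrays (horizontal axis) for all 54 probe sets, with triangles for Ighm and circles for the other genes. The grey band is the range over arrays of the 95th percentile of silent genes; the named points are the 4 probe sets that passed an adjusted p under 0.05 among all 45037 probe sets.

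Other genes of the same pathways were read in lists beside the members. Over all genes, 14% were called higher and 14.7% lower. The T cell surface list and the B cell and plasma cell surface list did not exceed either share. Among other T cell signalling genes 7 of 23 measured were higher in p53 on and 1 lower (median change 0.16). Sla, an adaptor that dampens receptor signals, rose by 1.47 ± 0.089 (10.01 and 10.15 in p53 on, against 8.67 and 8.56 in p53 off). Lcp2, an adaptor used by T cells, NK cells and myeloid cells, rose by 1.30 ± 0.095, and Fyn, a kinase of many tissues, by 0.77 ± 0.090. Rasgrp1, which activates RAS in T cells, rose by 0.87 ± 0.12 in its brightest probe set, a call lost with the mean of its probe sets (0.18, adjusted p 0.142). That brightest probe set was not above the silent-gene level in either group. Among other T cell surface and cytokine receptor genes 2 of 19 were higher and 0 lower (median change 0.17). These were Ltb, a lymphotoxin, at 0.54 ± 0.12, and Slamf6, a signalling receptor shared with NK and B cells, at 0.44 ± 0.082. Both calls were lost when either p53 off array was left out, and that of Slamf6 also with the mean of its probe sets (0.17), with adjusted p-values up to 0.139 for Ltb and 0.106 for Slamf6 over all alternatives.

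Of other B cell signalling genes, many of which myeloid cells also use, 12 of 14 measured were higher in p53 on and 0 lower (median change 0.53). Prkcb, a protein kinase C, rose by 1.71 ± 0.095 (10.56 and 10.40 in p53 on, against 8.70 and 8.84 in p53 off). Cd72, an inhibitory coreceptor, rose by 0.98 ± 0.084, Inpp5d, a lipid phosphatase of blood cells, by 0.94 ± 0.073 (0.53 with the mean of its probe sets), and Blnk, an adaptor downstream of SYK, by 0.82 ± 0.072. Among other B cell and plasma cell surface genes 1 of 14 was higher and 2 were lower (median change 0.013). Tnfrsf13b, the receptor TACI, rose by 0.67 ± 0.074. Cd24a and Sdc1, which epithelial cells express too, fell by 1.53 and 0.51 on the log2 scale, with adjusted p-values of 0.00051 and 0.00818. The Sdc1 call was lost without the second p53 off array (adjusted p 0.0677).

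Among lymphocyte transcription factors 6 of 22 measured were higher and 1 lower (median change 0.15), and 13 of the 22 were above the silent-gene level in neither group, among them Bcl11b, Gata3, Ikzf3, Pou2af1, Rag1 and Rag2. Ebf1, an early B cell factor that stromal and fat precursor cells also express, had 11.16 and 11.05 in p53 on, against 9.92 and 9.83 in p53 off. It rose by 1.23 ± 0.082 (adjusted p 0.000761). Ikzf1, a zinc finger factor of all blood lineages, rose by 1.11 ± 0.096 (0.58 with the mean of its probe sets). Satb1, a chromatin organiser, rose by 0.82 ± 0.15 (0.47 with the mean of its probe sets) and Prdm1, a factor of plasma cells and of several other cell types, by 0.67 ± 0.11. Without the second p53 off array neither of these last calls held (highest adjusted p 0.0765 for Satb1 and 0.0647 for Prdm1 over the alternatives), and Satb1 did not pass without the first p53 off array either.

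Markers of other cells of the tumor moved with the groups in the same arrays. Of 10 pan-leukocyte genes 9 were higher in p53 on and 0 lower, with a summed level of 14.76 and 14.82 in p53 on, against 14.08 and 13.92 in p53 off. Of 15 macrophage markers 10 were higher and 0 lower, with a summed level of 15.84 and 15.62 in p53 on, against 14.80 and 14.95 in p53 off. Marco, Clec4f and Vsig4 were not above the silent-gene level in either group. Vsig4 exceeded it on the first p53 on and the second p53 off array only (8.53 and 7.47 in p53 on, 7.60 and 7.70 in p53 off). Of 13 NK cell markers 8 were higher and 1 lower, with overlapping summed levels of 12.40 and 13.11 in p53 on and 12.97 and 12.83 in p53 off. The p53 off sums rest largely on Klrc1, the marker that was lower, with 10.17 and 9.78 in p53 on, against 12.36 and 12.30 in p53 off. Sums without Klrc1 were not taken, so the overlap does not describe the other NK cell markers. Of the 13 markers 7, among them Ncr1, Klrk1, Eomes and Nkg7, were not above the level in either group. The leukocyte genes with the largest changes were Arhgdib at 1.61, Cd48 at 1.47, Was at 1.27 and Cd52 at 0.85, a call lost for Cd52 without the second p53 off (0.56) or the second p53 on array. For macrophages they were Adgre1 at 1.17, Csf1r at 1.16, Mpeg1 at 1.04 and Lyz2 at 1.01. For NK cells they were Gzma at 2.55, Klrc1 at -2.35, Klrd1 at 1.57 and Nkg7 at 0.93, and Gzma did not pass without the second p53 off array or with trend and robust eBayes (highest adjusted p over the alternatives 0.0915). Several members are shared with these cells, and the part of these cells in the values of the members was not tested.

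Those dendritic and vessel markers that passed the test were higher in p53 on. Of 9 conventional dendritic cell markers 6 were higher and 0 lower, with a summed level of 12.09 and 11.97 in p53 on, against 10.86 and 10.92 in p53 off; Xcr1, Cd209a, Ccr7 and Itgae were not above the silent-gene level in either group. Of 8 plasmacytoid dendritic cell markers 2 were higher and 0 lower, with a summed level of 13.40 and 13.43 in p53 on, against 12.42 and 12.20 in p53 off. These were Irf8 and Tcf4, factors with wide expression, while Siglech, the defining receptor of these cells, was not above the level. For conventional dendritic cells the largest changes were those of Zbtb46 at 2.75 (1.30 with the mean of its probe sets), Clec10a at 1.72, Batf3 at 0.89 and Cd209a at 0.82, and Batf3 did not pass without the first p53 off (0.58) or the second p53 on array. Zbtb46 had 10.68 and 10.56 in p53 on, against 7.93 and 7.80 in p53 off, and sums without it were not taken. Of 10 endothelial markers 8 were higher and 0 lower, with a summed level of 13.02 and 13.25 in p53 on, against 12.33 and 12.32 in p53 off. Tek, Vwf, Emcn and Tie1 led them, at 1.40, 1.02, 0.93 and 0.79, and Tie1 did not pass when either p53 off array was left out. Vwf and Tie1, and also Stab2, were not above the silent-gene level in either group. For the labelled tissue, 9 hepatocyte markers were measured, and 0 were higher and 3 lower. In these tumors, which grew from progenitor cells, 5 of the 9 markers were not above the silent-gene level in either group. Alb, Apoa1 and Ahsg were among these 5. Cyp2e1, also among the 5, exceeded the level on the first p53 on array alone (9.71 and 7.39 in p53 on, 7.27 and 7.24 in p53 off). Apob fell by 3.27 (-1.54 with the mean of its probe sets) and Hnf4a fell by 0.58 (-1.54 without probe sets of likely cross-hybridization) on the log2 scale. Ahsg fell by 0.45, a call lost without the second p53 off array, without the first p53 on array and with spike-in scaling (highest adjusted p 0.193).

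**Figure D5:**
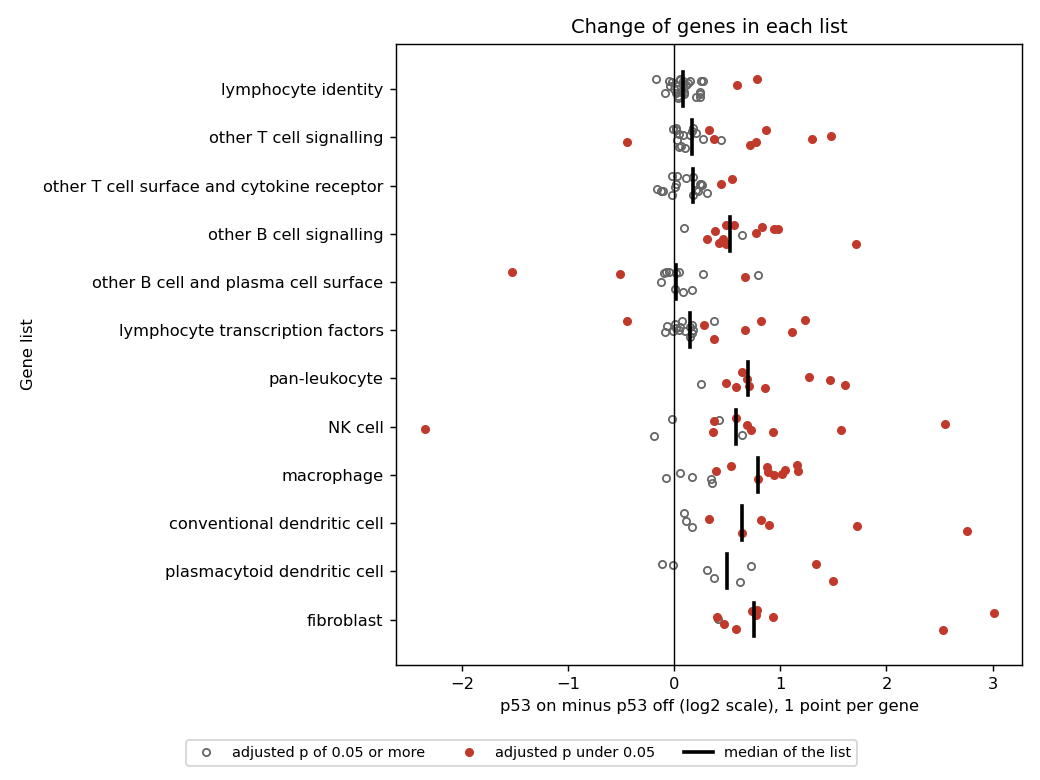
Change of each gene, p53 on minus p53 off on the log2 scale (horizontal axis), by gene list (vertical axis), with filled circles for an adjusted p under 0.05, open circles for the others and a bar at the median of the list. The bar of the lymphocyte identity genes is at 0.08, and those of the pan-leukocyte and macrophage genes are at 0.70 and 0.79.

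The scale of the arrays bore on the members that lay just short of the threshold. When arrays were scaled to the spike-in controls, added RNAs that had means of 11.27 and 11.23 in p53 on and 11.36 and 11.40 in p53 off, the median change over all genes became 0.154 and that of the members 0.211. Cd3e, Cd4, Icos and Ighm then passed as well, giving 6 members higher, with an adjusted p of 0.0164 for Cd3e. In the same setting 70% of the genes called in either direction were higher, against 48.8% in the values as deposited. Cd3e also passed when the probe sets of each gene were averaged, where its own value is the same and the fitted spread differs. Precision was limited by the number of arrays: the 95% confidence interval of a member extended a median of 0.205 and at most 0.355 to each side of its change.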

How the data were processed

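Total RNA of 4 mouse liver tumor samples was hybridized to Affymetrix mouse arrays, 1 sample per array, and groups (2 arrays each) and replicate numbers come from the sample labels. The deposited log2 values, 1 per probe set and array, were made by the authors with RMA, per the submitters' processing notes; these list limma 3.14.4 too. They run from 4.66 to 14.93, and RMA can compress changes of dim genes.

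Of 45101 probe sets, 64 were controls and 34945 named exactly 1 gene in the platform annotation. All 54 probe sets of members matched a RefSeq gene, and 0 symbols differed. Another 4 probe sets name a member among several genes and were not used. Each gene is read from its brightest probe set (highest mean over all 4 arrays). limma 3.58.1 (R 4.3.3) fitted p53 on minus p53 off with lmFit and eBayes, without a block, tested on simulated data; a permutation test of 2 against 2 arrays cannot give a p under 0.333. The targeted gene was not analysed here. Summed levels are log2 of the sum of linear values. The members and lists were chosen with earlier results of these data known. Named in full were the called members, Cd3e, Cd3d, Cd3g, Cd4, Cd8a, Cd79a, Cd79b, Ms4a1, Ighm and Foxp3, and from each other list up to 4 called genes with the largest change; other names were added once values had been seen. Some genes stand in 2 lists (Cd37, Il2rb, Ccr7, Eomes, Spib, Thy1). Alternatives were a replicate block, quantile normalization, centring each array, spike-in scaling, leaving out the lowest 40% of genes, the mean of all probe sets, no likely cross-hybridizing probe sets, trend and robust eBayes, adjustment over all probe sets, other silent-gene levels and leaving out each array, where the lone array of a group takes its spread from the other group. A crossed block and a silent-gene rule that needs most probe sets of a gene above the level were added after seeing the data.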

Additional observations from a re-analysis of the deposited data

Results flagged for a closer look

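A pair of probe sets that do not stand for Ighm in the comparison of genes, since they are not its brightest, showed a change that the brightest did not. Probe set 1427351_s_at was higher in p53 on by 0.84 and 1427329_a_at by 0.65 on the log2 scale, in 2 of 2 arrays each, whereas the brightest Ighm probe set changed by 0.20 and did not pass the test. The first kept its call in all 10 alternatives fitted to it (0.77 to 0.97). The second lost it without the first p53 off array (0.52, adjusted p 0.0604) and kept it in the others. Among the silent probe sets 2 of 80 were higher and 1 was lower in the same test.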

How the results depend on the processing

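Thy1 (0.63 to 0.94) and Cd22 (0.43 to 0.72) kept direction and call in all 13 alternatives fitted to them, with adjusted p-values up to 0.0359 and 0.0398. The count of members higher in p53 on stayed at 2 or 3 except with spike-in scaling (6), and 0 were lower in every alternative. Over the 28 genes and the 2 Ighm probe sets there were 364 alternative values, of which 357 kept their call, 6 gained one and 1 lost it; of 578 values of 45 other genes, 23 lost a call, in 11 genes, and 0 reversed. The median change of lymphocyte genes moved to 0.0247 with quantile normalization, 0.0112 with each array centred, 0.211 with spike-in scaling and 0.249 without dim genes, where fewer members are left, and to between 0.0354 and 0.126 when 1 array was left out (lowest without p53 off replicate 2, highest without p53 off replicate 1). At the 99th percentile 5 members were above the silent-gene level in p53 on and 4 in p53 off, and at the 90th 8 in p53 on and 13 in p53 off. By the mean of all probe sets they numbered 3 in p53 on and 4 in p53 off, and by the rule that most probe sets must be above it 2 in p53 on and 3 in p53 off. The level is set on each array. Its 90th percentile form was 7.67 and 7.51 in p53 on, against 7.44 and 7.36 in p53 off. These counts therefore do not compare the values of the members between the groups. Centring and spike-in scaling each move the change of every gene by the same amount, and the median moves by that amount too. Apart from these and the alternatives that leave out genes or arrays, the cause of these shifts was not tested. Over all genes, 2550 were called higher and 2673 lower, against 1583 and 1676 without p53 off replicate 1, 1093 and 1135 without p53 off replicate 2, 2137 and 3386 with each array centred (38.7% higher) and 4421 and 1892 with spike-in scaling. The replicate numbers do not establish pairs; with a replicate block 2027 genes were higher and 2296 lower, and Thy1 (0.78, adjusted p 0.0211) and Cd22 (0.59, adjusted p 0.015) kept their calls, while those for the change of Ltb (adjusted p 0.0503) and the change of Cd52 (adjusted p 0.0663) were lost. Deviations of same-numbered arrays correlated at -0.154 over 18193 genes, and with the numbers crossed 1984 genes were higher and 1970 lower. Signal over background limits most members: a dim gene could differ without passing.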

Other observations

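Antibody and T cell receptor genes were read apart from the members, in a list added after seeing the data that leaves Ighm aside. Their variable segments are rearranged only in lymphocytes, but Igha and Ighg3 in this list are constant regions. Of 27 immunoglobulin probe sets 0 were higher in p53 on and 1 lower, against 11.3% and 11.5% of all probe sets (median change -0.042), and 1 was above the silent-gene level in p53 on and 2 in p53 off. Igha, the IgA heavy chain, was above it in both groups with 1429381_x_at (7.98 and 7.99 in p53 on, 7.96 and 8.10 in p53 off). Its 4 values overlapped between the groups, and the other Igha probe sets were not above the level in either group. Ighg3, an IgG heavy chain, fell by 0.33 in 1427503_at, with an adjusted p of 0.0272 over all probe sets. That probe set had 7.66 and 7.60 in p53 on, against 7.96 and 7.95 in p53 off. The other Ighg3 probe sets changed by between -0.13 and -0.015, did not pass and were not above the level in either group.

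Of 17 T cell receptor probe sets 1 was higher and 1 lower, against the same shares of all probe sets (median change 0.0039), and 1 was above the silent-gene level in p53 on and 2 in p53 off. Trav9d-3, a variable segment of the alpha chain, was above it in both groups with 1426113_x_at (8.58 and 8.78 in p53 on, 8.74 and 8.75 in p53 off), and the groups overlapped. The other Trav9d-3 probe sets were not above it in either group. Trbv1, a variable segment of the beta chain, had 7.14 and 7.12 in p53 on, against 8.17 and 8.29 in p53 off, in 1452205_x_at. It fell by 1.10 ± 0.078, with an adjusted p of 0.00104, and was above the silent-gene level in p53 off alone. The other Trbv1 probe set, 1433108_at, changed by -0.095 (adjusted p 0.50 over all probe sets). Its values overlapped between the groups and were not above the level. Trbv13-2, another such segment, rose by 0.31 ± 0.073 in 1427628_at (adjusted p 0.0335) and was not above the level in either group. The suffix x marks probes shared with similar transcripts, so which transcripts the Trbv1 and Trav9d-3 probe sets with that suffix read is uncertain.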
